A study of Mus musculus with 12 samples.

Results

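The genes described here encode proteins that write, erase or read chemical marks on histones and DNA, or that move nucleosomes. They were chosen by symbol among the genes the authors had listed, with earlier results of these data known. The rule took every listed gene named for the Kmt2, Kmt5, Setd, Ash1l, Nsd, Chd, Arid, Smarc, Tet, Dnmt, Kdm, Ep300, Ep400, Crebbp, Kat, Hdac, Ezh, Suz12, Eed, Ncor, Brd, Baz, Phf or Ino80 families. This found 58 of the 3684 genes in the 8 deposited tables. Of these chromatin genes, 49 were among the 2851 genes of the CD8a tables, 46 among the 2999 genes of the CD4 tables, and 37 in tables of both cell types. Average expression had been measured in CD8a and CD4 cells of the spleen of 12 mice by droplet single-cell RNA sequencing. The groups were 3 S100a9-/- C57Bl6/J (KO) mice after repeated social defeat stress, 3 KO mice without stress, 3 C57Bl6/J (WT) mice after stress and 3 WT mice without stress. In repeated social defeat, mice are attacked again and again by an aggressor. It lasted 10 days here, followed by 1 day of behavioural tests, and spleens were taken on day 12. The labels used here give no sex, age or design of the S100a9 allele.

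DNA in the nucleus is wound around histone proteins, and how tightly a gene is packed depends on acetyl and methyl groups on the histone tails and on methylated cytosines. Histone methyltransferases and acetyltransferases add these groups, and demethylases and deacetylases take them off. Remodellers of the SWI/SNF, CHD, ISWI and INO80 families use ATP to slide or evict nucleosomes. In T cells these enzymes are known for roles in keeping naive cells at rest and in opening cytokine and effector genes upon activation.

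Each value is an average over the cells of a type in 1 mouse, on a scale of 10000, and the depth behind it is unknown. Such an average cannot tell fewer expressing cells from less RNA per cell. In CD8a cells of KO mice Cd8a was at 3.38 to 3.79 after stress against 4.35 to 5.27 without. In those of WT mice it was at 3.75 to 4.16 against 4.45 to 4.86. Cd8a was at 0.0526 to 0.269 in CD4 cells. Cd4 in CD4 cells was at 1.86 to 2.47 after stress against 2.59 to 2.72 in KO mice, and at 1.66 to 1.85 against 2.58 to 3.01 in WT mice. Cd3d went the other way there, at 9.57 to 10.2 against 7.25 to 8.83 in KO and 9.47 to 10.7 against 7.5 to 7.97 in WT mice. In CD8a cells Cd3d was also higher after stress. It was at 9.89 to 10.6 against 7.77 to 8.64 in KO mice. In WT mice it was at 9.95 to 10.7 against 7.77 to 8.24. The 6 T cell markers listed in CD8a cells, of 9, summed to 48.3 to 52.8 against 48.4 to 54.6 in KO mice. In WT mice that sum was 51.1 to 52 against 49.1 to 52.4, with overlap in both genotypes. S100a9 was low in CD4 cells of every mouse, at 0.0294, 0.023 and 0.0228 in stressed KO, 0.0493, 0.0418 and 0.0437 in unstressed KO, 0.111, 0.0595 and 0.106 in stressed WT and 0.00449, 0.0167 and 0.0119 in unstressed WT mice. Without stress it was higher in the mice labelled KO, so it does not check the labels, and KO and WT below mean the labelled genotypes. The mitochondrial gene mt-Nd3 separated them in CD4 cells, at 0 to 0.00857 in KO and 0.993 to 2.77 in WT mice. Other differences between the lines cannot be told apart from the S100a9 genotype. Ribosomal protein genes in CD4 cells summed to 2750 to 2904 in stressed KO against 1979 to 2050 in unstressed KO mice, and to 2923 to 3072 in stressed WT against 2219 to 2418 in unstressed WT mice. The 3 natural killer cell markers listed in CD4 cells, of 6, summed to 2.96 to 6.18 in stressed KO against 1.27 to 2.05 in unstressed KO mice, and to 1.86 to 5.59 in stressed WT against 0.885 to 1.37 in unstressed WT mice. The 5 B cell markers listed in CD4 cells, of 10, summed to 3.14 to 3.8 in stressed KO against 6.81 to 9.96 in unstressed KO mice, and to 3.88 to 6.41 in stressed WT against 3.07 to 7.93 in unstressed WT mice. In CD8a cells 7 B cell markers summed to 4.97 to 6.21 in stressed KO against 10.0 to 13.1 in unstressed KO mice, and to 4.39 to 6.62 in stressed WT against 6.7 to 12.1 in unstressed WT mice. In CD8a cells 3 natural killer cell markers summed to 9.28 to 10.9 in stressed KO against 7.66 to 8.99 in unstressed KO mice, and to 8.63 to 10.4 in stressed WT against 7.13 to 7.95 in unstressed WT mice. In CD4 cells of WT mice the summed markers of 3 other cell types also did not overlap: 4 of 7 for neutrophils at 0.116 to 0.323 after stress against 0.0118 to 0.0304 without, 5 of 7 for monocytes and dendritic cells at 1.19 to 1.42 against 0.795 to 0.867, and 4 of 5 for erythroid cells at 0.197 to 2.36 against 0.0891 to 0.141. The 5 of 7 neutrophil markers listed in CD8a cells were at 0.0981 to 0.265 against 0.00618 to 0.0474 in WT mice. In KO mice these sums overlapped. The part of these genes in the results below was not tested.

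Chromatin genes were lower after stress in both cell types of both genotypes. In CD8a cells of KO mice, 25 of the 30 chromatin genes in the authors' table of that comparison fell, 0 rose and 5 did not pass the test, with a median log2 change of -0.78. Of all 2023 genes there, 22.1% were called lower and 17.9% higher, and the median change was 0.11. In CD8a cells of WT mice, 44 of 47 fell, 1 rose and 2 did not pass (median -0.81), where 41.5% of 2108 genes were called lower and 26.7% higher (median 0.09). In CD4 cells of KO mice, 23 of 29 fell, 0 rose and 6 did not pass (median -0.74), where 20% of 1898 genes were called lower and 19.5% higher (median 0.13). In CD4 cells of WT mice, 38 of 43 fell, 2 rose and 3 did not pass (median -0.79), where 28.9% of 2413 genes were called lower and 31% higher (median 0.15). A call is an adjusted p under 0.05 by limma on log2(value + 0.1), with 3 stressed and 3 unstressed mice. The authors had selected the genes of each table, so these counts are not independent evidence of a direction, and p-values measure only the spread between these mice.

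The 3 stressed and 3 unstressed mice did not overlap in 26 of 30 chromatin genes in CD8a cells of KO mice (48.8% of all genes tested), 47 of 47 in those of WT mice (73.2%), 25 of 29 in CD4 cells of KO mice (48.9%) and 40 of 43 in those of WT mice (65.5%). With ribosomal and mitochondrial genes left out and the rest rescaled, the median change of all genes was 0.23 in CD8a KO, 0.24 in CD8a WT, 0.25 in CD4 KO and 0.26 in CD4 WT cells. That of the chromatin genes was then -0.64, -0.67, -0.62 and -0.71 in the same order. Of all calls in CD8a cells of WT mice 60.8% were lower, against 42.8% with each mouse centred on its median and 47.8% after rescaling. For KO mice the lower share was 55.3% in CD8a and 50.7% in CD4 cells, against 39.5% and 35.5% after rescaling. All 130 calls of a lower chromatin gene in the 4 tables held in every alternative setting that tested the gene. That gave 1817 results, 1 per call and setting, with a highest adjusted p by limma of 0.0084. The settings reuse the same mice.

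Summed over the 49 chromatin genes listed in CD8a cells, expression was 39.6, 41.5 and 42.2 in stressed KO mice, against 68.1, 69.1 and 69 in unstressed KO mice. In WT mice the CD8a sum was 34.4, 39.9 and 40.2 after stress, against 69.9, 67.2 and 67.2 without stress. The 46 genes listed in CD4 cells summed to 44.7, 43.4 and 44.2 in stressed KO mice, against 69.8, 72.8 and 72.3 in unstressed KO mice. In WT mice the CD4 sum was 38.8, 41.1 and 43.7 after stress, against 73.6, 72 and 69.8 without stress. Every stressed mouse was below every unstressed one in both cell types. The authors had selected the summed genes, nearly all for a stress comparison of these same mice. This separation is therefore not independent evidence of a fall. Stressed WT mouse 1 had the lowest sum in each cell type, and in CD8a cells it held the lowest stressed WT value for 34 of the 49 genes. Without it the median log2 change in CD8a cells of WT mice was -0.72.

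**Figure D1:**
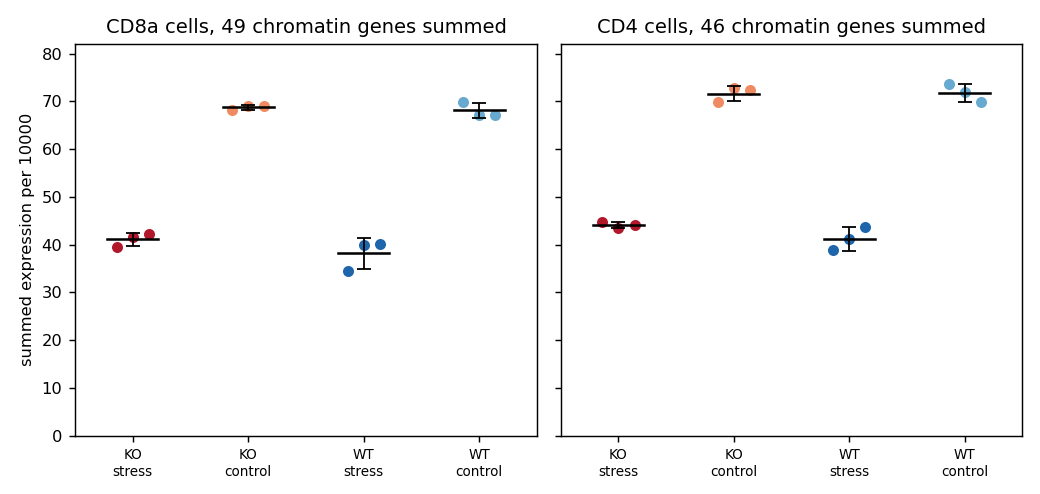
Summed expression per 10000 of the chromatin genes (y axis) in each mouse (points), with the mean and SD of 3 mice, for 4 groups in CD8a cells (left, 49 genes) and CD4 cells (right, 46 genes). All stressed mice lie between 34.4 and 44.7, and all unstressed mice between 67.2 and 73.6. The authors had selected the genes with these same mice.

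Among the chromatin genes that fell, the stressed mean was 34% (Tet1) to 78.2% (Brd3) of the unstressed mean in CD8a cells of KO mice, with a median of 56.4%. It was 33.8% (Baz2b) to 67.6% (Ncor1) in CD8a cells of WT mice, with a median of 52.6%. In CD4 cells it was 44.5% (Tet3) to 73.9% (Chd3) in KO mice and 39.6% (Baz2b) to 69.9% (Chd3) in WT mice, with medians of 57.8% and 52.7%. Some of these genes are listed for a cell type but not in the table of the comparison, and were tested over all genes of the cell type. There, 19 of 19 fell in CD8a and 15 of 17 in CD4 cells of KO mice, where 34.4% of 2851 and 28.1% of 2999 genes were called lower. These members had entered through the table of stress in WT mice. The shares also count genes in the table of stress in KO mice, so the counts and the shares do not cover like genes. The counts by role below cover the tables alone. The CD4 genes that did not pass were Kat8 (0.12 ± 0.13, log2 change ± SE) and Phf11a (0.01 ± 0.12). In WT mice none of 2 genes in CD8a (Brd9, Eed) and none of 3 in CD4 cells (Brd9, Setd4, Smarcd1) passed, where 35.4% and 27.7% of genes were called lower. These genes had entered through the table of stress in KO mice.

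**Figure D2:**
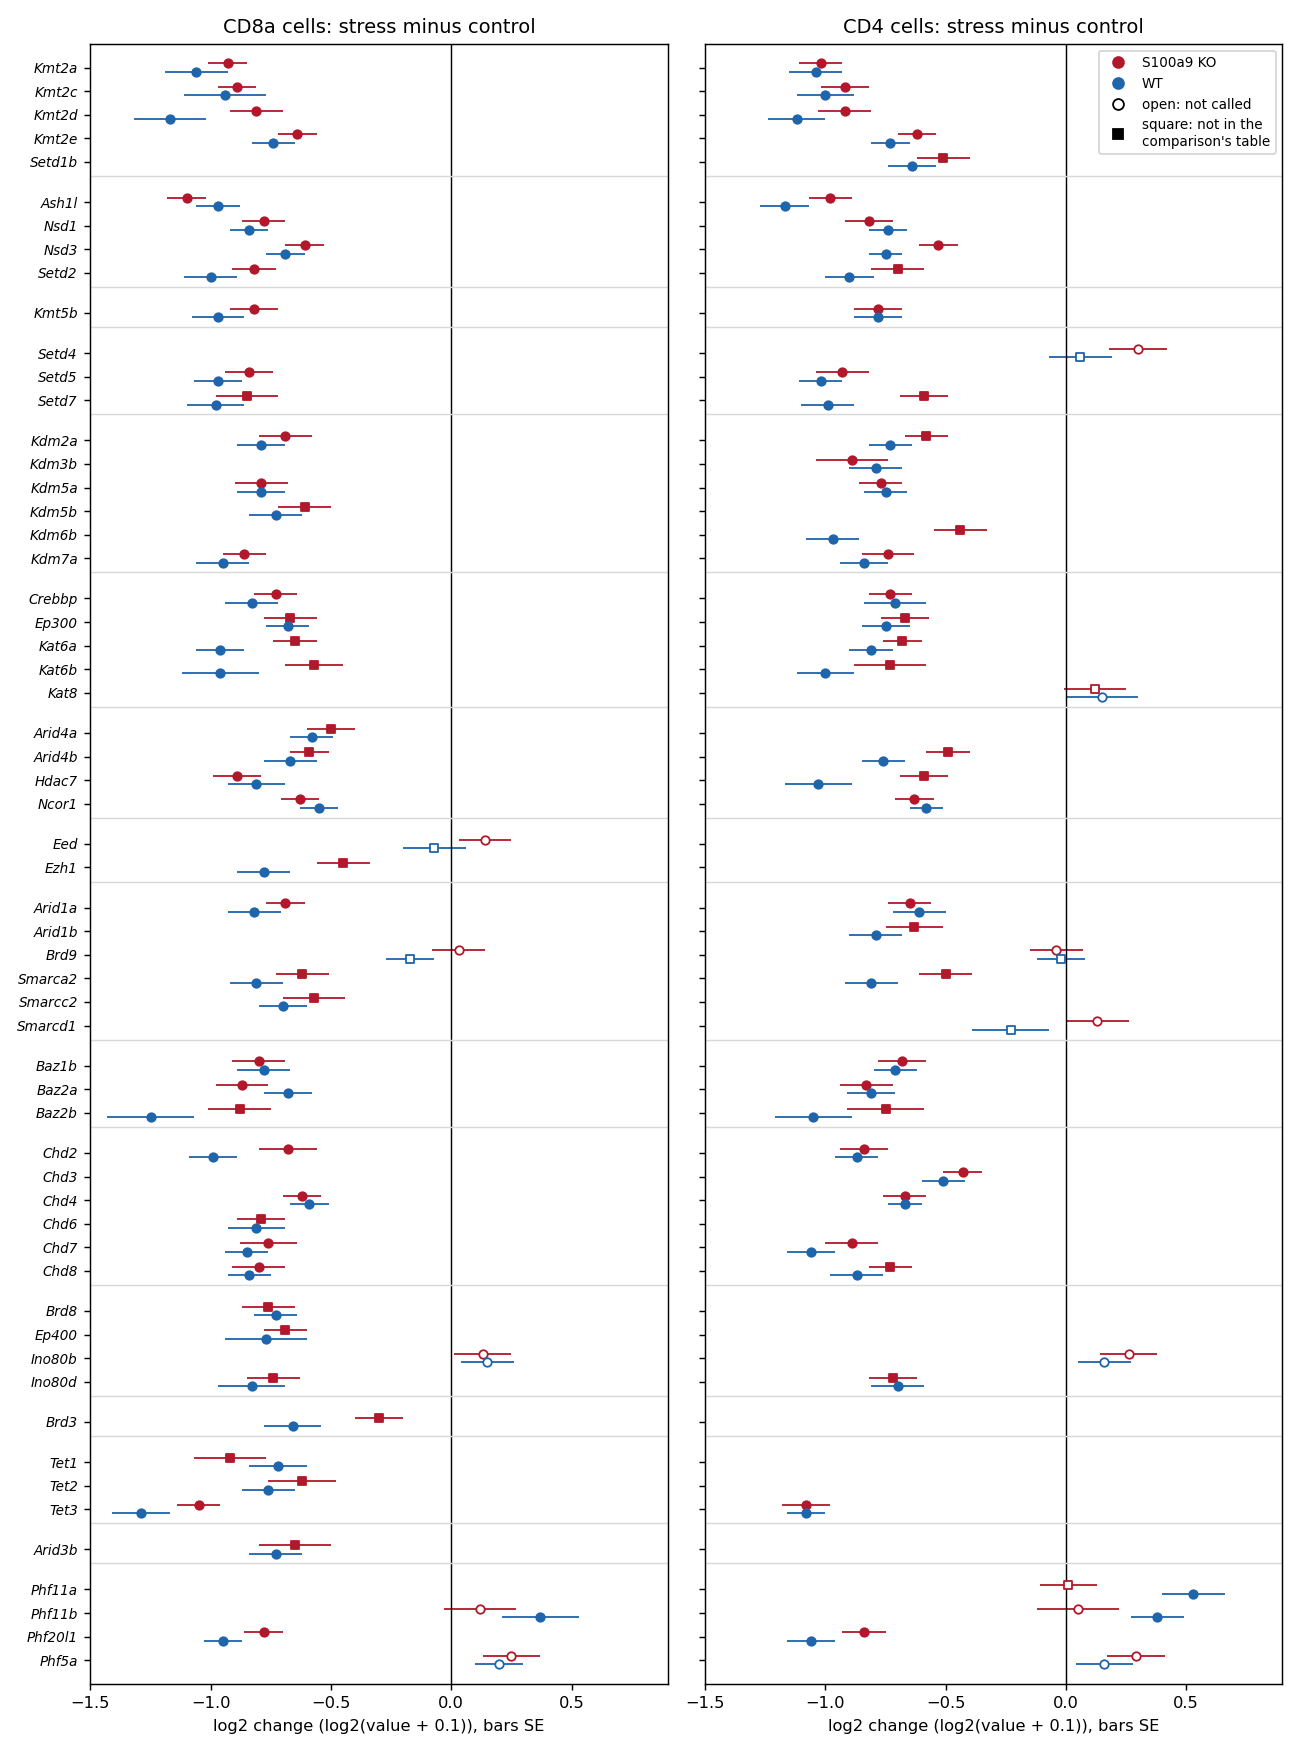
Change with stress in log2(value + 0.1) (x axis) of each chromatin gene (rows, grouped by role), with its standard error, in CD8a cells (left) and CD4 cells (right), KO in red above WT in blue. Open symbols did not pass the test, and squares were tested over all genes of the cell type. Genes that fell lie between -1.29 and -0.30, and the others between -0.23 and 0.53.

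Promoters are shown for Kmt2a and Tet3, which fell in every comparison, for Ino80b, which did not pass in any, and for Phf11b, which rose in WT mice. Windows run from 250 bases before to 50 after a RefSeq transcription start (GRCm38.p6), and 40 of the 58 chromatin genes matched 51 windows. The Tet3 window is at a start inside the gene model, which runs on the minus strand from 83459084 down to 83362373. It is therefore not that of the outermost start. Capitals mark CpG pairs in the Kmt2a, Tet3 and Ino80b sequences, and in the Phf11b sequence an interferon-type element, 2 runs of GAAA with 2 bases between them.
Kmt2a promoter, chr9:44881240-44881539, minus strand: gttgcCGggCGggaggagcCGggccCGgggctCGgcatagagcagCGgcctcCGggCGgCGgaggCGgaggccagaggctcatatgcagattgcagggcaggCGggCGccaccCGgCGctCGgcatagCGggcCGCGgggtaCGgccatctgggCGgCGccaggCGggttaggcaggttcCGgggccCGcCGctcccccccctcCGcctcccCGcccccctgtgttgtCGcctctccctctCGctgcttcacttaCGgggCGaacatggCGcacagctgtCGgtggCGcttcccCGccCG
Tet3 promoter, chr6:83441629-83441928, minus strand: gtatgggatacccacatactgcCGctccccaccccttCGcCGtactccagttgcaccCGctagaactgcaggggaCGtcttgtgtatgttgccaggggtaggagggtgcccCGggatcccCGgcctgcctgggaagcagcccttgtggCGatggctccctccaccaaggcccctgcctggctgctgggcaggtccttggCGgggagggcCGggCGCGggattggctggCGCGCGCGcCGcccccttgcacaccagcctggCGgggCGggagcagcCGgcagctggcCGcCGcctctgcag
Ino80b promoter, chr6:83125070-83125369, minus strand: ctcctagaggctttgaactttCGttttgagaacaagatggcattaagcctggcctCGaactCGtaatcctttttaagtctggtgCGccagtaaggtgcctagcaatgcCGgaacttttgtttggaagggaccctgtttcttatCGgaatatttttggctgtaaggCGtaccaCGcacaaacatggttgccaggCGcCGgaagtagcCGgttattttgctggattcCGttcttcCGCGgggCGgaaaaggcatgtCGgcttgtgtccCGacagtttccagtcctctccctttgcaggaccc
Phf11b promoter, chr14:59341281-59341580, minus strand: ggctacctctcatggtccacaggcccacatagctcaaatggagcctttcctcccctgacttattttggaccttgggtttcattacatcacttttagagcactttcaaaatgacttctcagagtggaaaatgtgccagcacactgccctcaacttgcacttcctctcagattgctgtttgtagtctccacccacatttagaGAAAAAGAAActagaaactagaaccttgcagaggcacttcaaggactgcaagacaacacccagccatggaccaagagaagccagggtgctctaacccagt
The Kmt2a window held 36 CpG pairs, that of Tet3 22, that of Ino80b 17 and that of Phf11b 0. Windows of chromatin genes had a median of 27 CpG pairs, against 7 over all 32851 RefSeq windows. Those windows are not limited to genes listed in these cells, so the gap is not shown to be a trait of chromatin genes. Those of Phf11a and Phf11b were the 2 of 51 (3.92%) with none, against 5.43% of all windows. The interferon-type element, searched on both strands, was in 3.44% of all windows and in 3 of the 51 of chromatin genes, those of Phf11a, Phf11b and Arid4b. The windows of Phf11a and Phf11b are nearly the same sequence, shifted by some bases, so they are not independent matches. Arid4b fell in CD4 cells of WT mice (-0.76 ± 0.09). CCGGAAG, the core of ETS factor sites, was searched on both strands and found in 8.86% of all windows. It was in 10 of the 51 windows of chromatin genes, from 9 genes. Among these 9, Chd8, Kdm7a, Ncor1 and Smarca2 fell in both WT comparisons and Arid3b in the CD8a one, and Brd9, Ino80b, Kat8 and Setd4 did not pass. A match describes the window only.

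H3K4 methylation marks active promoters and enhancers. The Kmt2 family (Kmt2a, Kmt2c, Kmt2d and Kmt2e) and Setd1b, listed for this mark, fell in each comparison that tested them: 4 of 4 in CD8a KO, CD8a WT and CD4 KO cells and 5 of 5 in CD4 WT cells. Of all genes tested, 22.1% were called lower in CD8a KO, 41.5% in CD8a WT, 20% in CD4 KO and 28.9% in CD4 WT cells. Among other genes with transcripts of 5000 bases or more, 88%, 96.2%, 88.3% and 91.1% fell in the same order. The counts by role here and below are to be read beside these shares. Kmt2a (chromosome 9, 44803355 to 44881296, minus strand, mm10), which keeps this mark at active promoters, was, in CD4 cells, at 1.82, 1.56 and 1.75 in stressed KO mice, against 3.35, 3.75 and 3.64 in unstressed KO mice. It was at 1.48, 1.66 and 2.12 in stressed WT mice, against 3.96, 3.7 and 3.37 in unstressed WT mice. No stressed mouse reached the lowest unstressed one, and the log2 changes were -1.02 ± 0.09 (SE, adjusted p = 8.7e-07 by limma) in KO and -1.04 ± 0.11 (adjusted p = 1.3e-05) in WT mice. In CD8a cells they were -0.93 ± 0.08 in KO and -1.06 ± 0.13 in WT mice. Kmt2d, which methylates enhancers, was, in CD4 cells, at 0.344, 0.464 and 0.496 in stressed WT mice, against 1.13, 0.971 and 1.07 in unstressed WT mice. These groups did not overlap, and the changes were -0.81 ± 0.11 in CD8a KO, -1.17 ± 0.15 in CD8a WT, -0.92 ± 0.11 in CD4 KO and -1.12 ± 0.12 in CD4 WT cells. Kmt2c, its relative with the same role, changed by -0.89 ± 0.08 in CD8a KO, -0.94 ± 0.17 in CD8a WT and -0.92 ± 0.10 in CD4 KO cells. Kmt2e, a family member with little or no enzyme activity, was, in CD4 cells, at 1.75, 1.98 and 2 in stressed WT mice, against 3.35, 3.24 and 3.06 in unstressed WT mice. It fell there by 0.73 ± 0.08. Setd1b, an enzyme of the COMPASS complex, was listed in CD4 cells and fell in WT mice by 0.64 ± 0.10.

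H3K36 methyltransferases mark transcribed gene bodies. All that were tested fell, 4 of 4 in CD8a KO, CD8a WT and CD4 WT cells and 3 of 3 in CD4 KO cells. Ash1l (chromosome 3, 88950622 to 89079375, plus strand), which adds dimethyl groups, was, in CD8a cells, at 0.803, 0.813 and 0.841 in stressed KO mice, against 1.82, 1.84 and 1.95 in unstressed KO mice. It was at 0.934, 0.814 and 0.94 in stressed WT mice, against 2.01, 1.79 and 1.75 in unstressed WT mice. The groups did not overlap, and the changes were -1.10 ± 0.08 in KO and -0.97 ± 0.09 in WT mice. In CD4 cells Ash1l was at 0.823, 1.06 and 1.14 in stressed WT mice, against 2.41, 2.34 and 2.37 in unstressed WT mice. Its change there, -1.17 ± 0.10 (SE, adjusted p = 4.9e-06 by limma), was the lowest of the 43 chromatin genes in that table. Setd2, which travels with the elongating polymerase and makes the trimethyl mark, changed by -0.82 ± 0.09 in CD8a KO and -0.90 ± 0.10 in CD4 WT cells and also fell in CD8a WT cells. Nsd1 and Nsd3, which make the dimethyl mark, changed by -0.82 ± 0.10 and -0.53 ± 0.08 in CD4 cells of KO mice, and by -0.74 ± 0.08 and -0.75 ± 0.07 in those of WT mice. Kmt5b, which methylates H4K20, fell in all 4 comparisons, by 0.82 ± 0.10 in CD8a KO, 0.97 ± 0.11 in CD8a WT, 0.78 ± 0.10 in CD4 KO and 0.78 ± 0.10 in CD4 WT cells.

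Of the other SET domain genes, Setd5 was, in CD4 cells, at 0.546, 0.702 and 0.64 in stressed KO mice, against 1.22, 1.32 and 1.33 in unstressed KO mice. It was at 0.594, 0.617 and 0.666 in stressed WT mice, against 1.42, 1.3 and 1.38 in unstressed WT mice. It fell in both, by 0.93 ± 0.11 in KO and 1.02 ± 0.09 in WT mice. Setd7, known for monomethylation of H3K4 and of other proteins, fell by 0.98 ± 0.12 in CD8a and 0.99 ± 0.11 in CD4 cells of WT mice. Setd4 did not pass in CD4 cells of KO mice (0.30 ± 0.12, adjusted p = 0.065), although its 3 stressed values were above its 3 unstressed ones. It passed as higher with each mouse centred on its median (0.31, adjusted p = 0.047 by limma) and after rescaling (0.44, adjusted p = 0.013), and was at 0.06 ± 0.13 in WT mice. The levels were 0.307, 0.258 and 0.254 in stressed KO mice, against 0.195, 0.214 and 0.198 in unstressed KO mice.

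Erasers of histone methylation fell too: 3 of 3 lysine demethylases in CD8a KO, 4 of 4 in CD8a WT, 3 of 3 in CD4 KO and 5 of 5 in CD4 WT cells. Kdm5a, which removes H3K4 methylation, was, in CD4 cells, at 1.06, 0.914 and 1.06 in stressed KO mice, against 1.73, 1.79 and 1.86 in unstressed KO mice. Kdm5a was at 0.998, 0.965 and 0.969 in stressed WT mice, against 1.87, 1.63 and 1.64 in unstressed WT mice. It changed by -0.77 ± 0.09 in KO and -0.75 ± 0.09 in WT mice there. Kdm7a, an eraser of H3K9 and H3K27 methylation, changed by -0.86 ± 0.09 in CD8a KO and -0.95 ± 0.11 in CD8a WT cells. Kdm2a, which acts on H3K36, and Kdm3b, which acts on H3K9, fell by 0.73 ± 0.09 and 0.79 ± 0.11 in CD4 cells of WT mice. Kdm6b (chromosome 11, 69398508 to 69413675, minus strand), an eraser of H3K27 methylation, was, in CD4 cells, at 0.364, 0.435 and 0.429 in stressed KO mice, against 0.613, 0.581 and 0.579 in unstressed KO mice. It was at 0.347, 0.369 and 0.331 in stressed WT mice, against 0.688, 0.889 and 0.77 in unstressed WT mice. The 3 unstressed WT values were the highest of the 12. Its change was -0.97 ± 0.11 in WT mice, and -0.44 ± 0.11 in KO mice over all genes of the cell type (adjusted p = 0.0076 by limma).

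Histone acetyltransferases loosen chromatin by neutralising lysines. Of those tested, 1 of 1 fell in CD8a KO, 4 of 4 in CD8a WT, 1 of 1 in CD4 KO and 4 of 5 in CD4 WT cells. Crebbp and Ep300, the coactivators that acetylate H3K27 at enhancers, changed by -0.83 ± 0.11 and -0.68 ± 0.09 in CD8a cells of WT mice, and by -0.71 ± 0.13 and -0.75 ± 0.10 in CD4 cells of WT mice. Kat6a, a MYST family enzyme, was, in CD8a cells, at 0.684, 0.637 and 0.664 in stressed WT mice, against 1.27, 1.33 and 1.56 in unstressed WT mice. It fell there by 0.96 ± 0.10, and its relative Kat6b by 0.96 ± 0.16. Kat8, which acetylates H4K16, did not pass in CD4 cells of WT mice (0.15 ± 0.15, adjusted p = 0.39). It was at 0.118, 0.185 and 0.151 in stressed WT mice, against 0.135, 0.159 and 0.086 in unstressed WT mice, with overlapping groups. Brd3, a BET protein that reads acetylated lysines, fell in CD8a cells of WT mice (-0.66 ± 0.12).

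Deacetylases and the corepressors that carry them fell as well, 2 of 2 in CD8a KO, 4 of 4 in CD8a WT, 1 of 1 in CD4 KO and 3 of 3 in CD4 WT cells. Hdac7 (chromosome 15, 97792664 to 97844502, minus strand), a class IIa deacetylase with a known role in developing T cells, was, in CD8a cells, at 0.811, 1.01 and 1 in stressed KO mice, against 1.73, 1.84 and 1.87 in unstressed KO mice. It was at 0.678, 1.03 and 0.976 in stressed WT mice, against 1.66, 1.6 and 1.58 in unstressed WT mice. Stressed values lay below unstressed ones in both, and the changes were -0.89 ± 0.10 in KO and -0.81 ± 0.12 in WT mice. In CD4 cells of WT mice it fell by 1.03 ± 0.14, with 0.387, 0.538 and 0.64 in stressed WT mice, against 1.25, 1.05 and 1.18 in unstressed WT mice. Ncor1, the scaffold that holds HDAC3 at repressed genes, was, in CD4 cells, at 3.09, 2.81 and 3.27 in stressed KO mice, against 4.75, 5.01 and 4.62 in unstressed KO mice. It was at 2.89, 2.92 and 3.13 in stressed WT mice, against 4.72, 4.59 and 4.18 in unstressed WT mice. Its changes were -0.63 ± 0.08 in CD8a KO, -0.55 ± 0.08 in CD8a WT, -0.63 ± 0.08 in CD4 KO and -0.58 ± 0.07 in CD4 WT cells. Arid4a and Arid4b, subunits of the Sin3 corepressor, changed by -0.58 ± 0.09 and -0.67 ± 0.11 in CD8a cells of WT mice.

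Tet enzymes oxidise methylated cytosine, a first step in removing DNA methylation. Tet3 (chromosome 6, 83362373 to 83459084, minus strand) was, in CD8a cells, at 0.692, 0.683 and 0.71 in stressed KO mice, against 1.55, 1.56 and 1.54 in unstressed KO mice. Tet3 was at 0.476, 0.699 and 0.658 in stressed WT mice, against 1.7, 1.54 and 1.61 in unstressed WT mice. The groups did not overlap, and its changes were -1.05 ± 0.09 in KO and -1.29 ± 0.12 in WT mice, and the WT value was the lowest of the 47 chromatin genes in that table. In CD4 cells it was at 0.769, 0.903 and 0.794 in stressed KO mice, against 1.7, 1.91 and 1.93 in unstressed KO mice. It was at 0.752, 0.846 and 0.824 in stressed WT mice, against 1.83, 1.81 and 1.8 in unstressed WT mice. The CD4 changes were -1.08 ± 0.10 (SE, adjusted p = 1.4e-06 by limma) in KO and -1.08 ± 0.08 (adjusted p = 2.8e-06) in WT mice. Tet1 and Tet2, listed in CD8a cells, fell in WT mice by 0.72 ± 0.12 and 0.76 ± 0.11. Tet1 was low, at 0.102, 0.0939 and 0.0885 in stressed WT mice, against 0.204, 0.239 and 0.221 in unstressed WT mice. These 3 are among 7 genes listed for DNA methylation and demethylation.

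**Figure D3:**
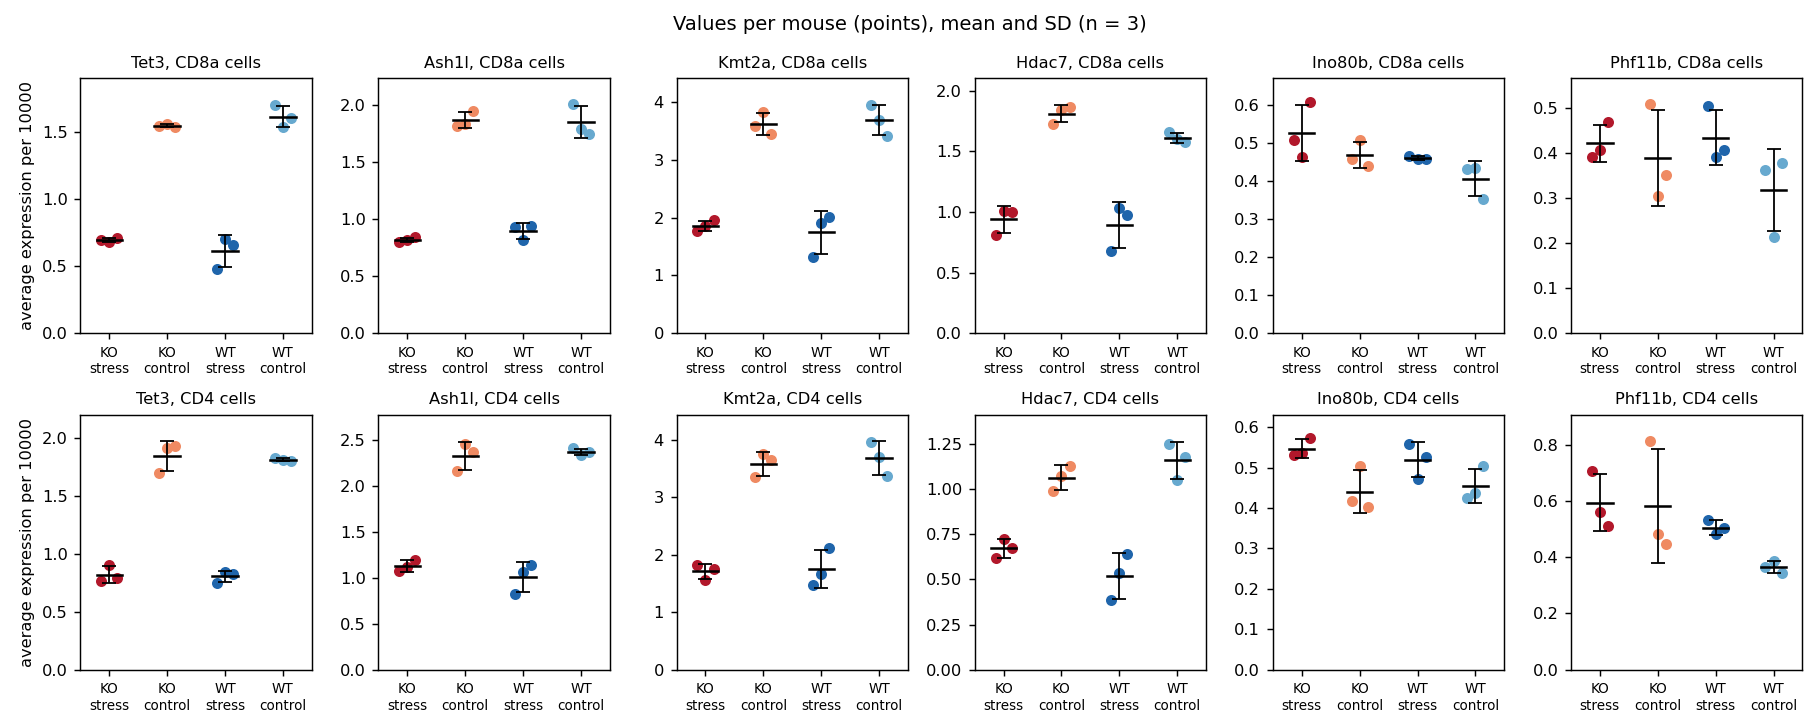
Average expression per 10000 (y axis) of Tet3, Ash1l, Kmt2a, Hdac7, Ino80b and Phf11b in each mouse (points), with the mean and SD of 3 mice, in CD8a cells (top) and CD4 cells (bottom) of 4 groups. For Tet3, Ash1l, Kmt2a and Hdac7 all stressed mice lie below all unstressed mice of their genotype. For Ino80b and Phf11b the means of both genotypes are higher after stress. The groups overlap for Phf11b in KO mice and for Ino80b in CD8a cells of KO and CD4 cells of WT mice.

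Polycomb repressive complex 2, which methylates H3K27, had 2 members, both in CD8a cells. Ezh1, an enzyme of the complex, was at 0.364, 0.312 and 0.337 in stressed KO mice, against 0.463, 0.491 and 0.544 in unstressed KO mice. It was at 0.278, 0.264 and 0.315 in stressed WT mice, against 0.542, 0.524 and 0.618 in unstressed WT mice. It fell in both, by 0.45 ± 0.11 in KO mice (over all genes of the cell type) and 0.78 ± 0.11 in WT mice. Eed, the subunit that reads the mark, did not pass in KO (0.14 ± 0.11, adjusted p = 0.36) or WT mice (-0.07 ± 0.13, adjusted p = 0.69 by limma over all genes of the cell type). Eed was at 0.469, 0.542 and 0.46 in stressed KO mice, against 0.438, 0.46 and 0.41 in unstressed KO mice.

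Among SWI/SNF subunits, 1 of 2 in the table fell in CD8a KO, 3 of 3 in CD8a WT, 1 of 3 in CD4 KO and 3 of 3 in CD4 WT cells. The tables list different subunits for KO and WT mice, and over all genes of the cell type the same subunits fell in both. Arid1a, a large subunit that defines the BAF form, was, in CD8a cells, at 1.36, 1.45 and 1.52 in stressed KO mice, against 2.36, 2.33 and 2.47 in unstressed KO mice. It was at 1.07, 1.44 and 1.39 in stressed WT mice, against 2.61, 2.42 and 2.08 in unstressed WT mice. It fell in both, by 0.69 ± 0.08 in KO and 0.82 ± 0.11 in WT mice. Its relative Arid1b changed by -0.63 ± 0.12 in CD4 KO and -0.79 ± 0.11 in CD4 WT cells, and the ATPase Smarca2 by -0.50 ± 0.11 and -0.81 ± 0.11. Smarcc2, a core subunit, changed by -0.57 ± 0.13 in CD8a KO and -0.70 ± 0.10 in CD8a WT cells. Brd9, of the non-canonical form, and Smarcd1 did not pass in either genotype. In CD4 cells Brd9 was at -0.04 ± 0.11 in KO and -0.02 ± 0.10 in WT mice as log2 change, and Smarcd1 at 0.13 ± 0.13 and -0.23 ± 0.16. The CD4 level of Brd9 was 0.893, 0.746 and 0.744 in stressed KO mice, against 0.762, 0.904 and 0.79 in unstressed KO mice, with overlapping groups.

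BAZ proteins, partners of the ISWI ATPases, fell in 2 of 2 tests in each KO comparison and 3 of 3 in each WT comparison. Baz2a, which silences ribosomal DNA, changed by -0.87 ± 0.11 in CD8a KO, -0.68 ± 0.10 in CD8a WT, -0.83 ± 0.11 in CD4 KO and -0.81 ± 0.10 in CD4 WT cells. Baz2b was, in CD8a cells, at 0.136, 0.316 and 0.163 in stressed WT mice, against 0.577, 0.542 and 0.704 in unstressed WT mice, and fell by 1.25 ± 0.18. CHD remodellers fell in 4 of 4 tests in each KO comparison and 5 of 5 in each WT comparison. Chd7, which binds enhancers, was, in CD4 cells, at 0.527, 0.578 and 0.703 in stressed KO mice, against 1.11, 1.22 and 1.24 in unstressed KO mice. It was at 0.592, 0.536 and 0.644 in stressed WT mice, against 1.43, 1.34 and 1.25 in unstressed WT mice. It changed by -0.89 ± 0.11 in KO and -1.06 ± 0.10 in WT mice. Chd3 and Chd4 are ATPases of the NuRD complex, which joins remodelling to deacetylation. Chd4 was, in CD4 cells, at 2.32, 2.2 and 2.23 in stressed WT mice, against 3.6, 3.82 and 3.53 in unstressed WT mice, and fell by 0.67 ± 0.07. Chd3 was at 3.38, 3.48 and 4.3 in stressed WT mice, against 5.09, 5.74 and 5.13 in unstressed WT mice, with changes of -0.43 ± 0.08 in KO and -0.51 ± 0.09 in WT mice, the smallest falls among the chromatin genes called lower in CD4 cells of each genotype.

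In the INO80 and TIP60 remodellers 3 of 4 genes fell in CD8a WT and 1 of 2 in CD4 WT cells, and the KO tables held Ino80b alone. Over all genes of the cell type, the same genes fell in KO mice. Ino80d changed by -0.74 ± 0.11 in CD8a KO, -0.83 ± 0.14 in CD8a WT, -0.72 ± 0.10 in CD4 KO and -0.70 ± 0.11 in CD4 WT cells. The TIP60 subunits Ep400 and Brd8 changed by -0.69 ± 0.09 and -0.76 ± 0.11 in CD8a KO, and by -0.77 ± 0.17 and -0.73 ± 0.09 in CD8a WT cells. Ino80b, a small subunit of the complex of Ino80d, did not pass in any comparison (0.13 ± 0.12 in CD8a KO, 0.15 ± 0.11 in CD8a WT, 0.26 ± 0.12 in CD4 KO and 0.16 ± 0.11 in CD4 WT cells). In CD4 cells it was at 0.531, 0.537 and 0.574 in stressed KO mice, against 0.417, 0.503 and 0.403 in unstressed KO mice. Ino80b was at 0.558, 0.473 and 0.527 in stressed WT mice, against 0.424, 0.438 and 0.503 in unstressed WT mice. Stressed values were above unstressed ones in KO mice and overlapped them in WT mice. After rescaling without ribosomal and mitochondrial genes, Ino80b passed as higher in CD8a WT (0.32, adjusted p = 0.018 by limma), CD4 KO (0.41, adjusted p = 0.011) and CD4 WT cells (0.28, adjusted p = 0.042), and with centring in CD8a WT cells (0.35, adjusted p = 0.0069).

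The remaining PHD finger genes differed in direction. Phf20l1, a reader of methylated lysine, was, in CD4 cells, at 1.56, 1.47 and 1.73 in stressed KO mice, against 2.61, 3.06 and 3.1 in unstressed KO mice. It was at 1.2, 1.33 and 1.54 in stressed WT mice, against 2.9, 2.77 and 3.14 in unstressed WT mice. It fell in all 4 comparisons, by 0.84 ± 0.09 in KO and 1.06 ± 0.10 in WT mice in CD4 cells. Phf5a, a subunit of the spliceosome that the name rule also takes in, did not pass in any comparison (0.25 ± 0.12 in CD8a KO, 0.20 ± 0.10 in CD8a WT, 0.29 ± 0.12 in CD4 KO and 0.16 ± 0.12 in CD4 WT cells). After rescaling it passed as higher in each, with changes of 0.40, 0.38, 0.44 and 0.29 in the same order, and with centring in CD8a WT (0.40) and CD4 KO cells (0.31).

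Phf11a and Phf11b, neighbours on the minus strand of chromosome 14 (59276913 to 59297522 and 59320964 to 59341351), were the members called higher after stress. In CD4 cells Phf11b was at 0.706, 0.561 and 0.511 in stressed KO mice, against 0.814, 0.482 and 0.447 in unstressed KO mice. It was at 0.532, 0.481 and 0.502 in stressed WT mice, against 0.365, 0.387 and 0.345 in unstressed WT mice. KO groups overlapped (0.05 ± 0.17) and WT groups did not (0.38 ± 0.11, adjusted p = 0.0081 by limma, and 0.053 with all 4 groups in 1 fit). Phf11a was, in CD4 cells, at 0.0561, 0.0978 and 0.0738 in stressed WT mice, against 0.0176, 0.0336 and 0.0125 in unstressed WT mice, and rose by 0.53 ± 0.13 (adjusted p = 0.0038 by limma). The call of Phf11b in CD8a cells of WT mice (0.37 ± 0.16, adjusted p = 0.049 by limma) was lost without stressed mouse 1 (0.28, adjusted p = 0.16), stressed mouse 2 (0.43, adjusted p = 0.054) or unstressed mouse 2 (0.18, adjusted p = 0.26). Transcripts of the pair are 96% identical over 1180 aligned bases, so how their reads were shared out is uncertain. Beside them, 21 of 24 interferon response genes, a list chosen after values were seen, summed in CD4 cells to 36.7, 29 and 31.6 in stressed KO mice and 52.4, 34.5 and 27.7 in unstressed KO mice. In WT mice they summed to 29.1, 25.1 and 24.8 after stress and 23.4, 23.3 and 25.4 without stress. Unstressed KO mouse 1 had the highest of the 12 values both of this sum and of Phf11b. The part of these genes in the change of Phf11b was not tested.

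Most chromatin genes have long transcripts, and length moved with the stress change. Of genes with a longest coding transcript of 5000 bases or more, all 24 chromatin genes and 88% of other genes fell in CD8a KO cells. The counts were 38 of 38 and 96.2% in CD8a WT, 23 of 23 and 88.3% in CD4 KO, and 37 of 37 and 91.1% in CD4 WT cells. In CD4 WT cells the median log2 change of the long genes was -0.81 for chromatin genes and -0.81 for other genes. Among shorter transcripts 6 of 9 chromatin genes and 24.3% of other genes fell in CD8a WT cells, and 1 of 6 and 15.9% in CD4 WT cells. In KO mice 1 of 6 and 11% fell in CD8a cells, and 0 of 6 and 8.69% in CD4 cells. The short ones that fell in the WT tables were Hdac7 (4226 bases), in both cell types, and in CD8a cells Arid3b (4171), Ezh1 (4207), Brd8 (4468), Smarcc2 (4562) and Arid4a (4998). These lie just under the cut, while all other genes tested in CD8a WT cells had a median of 1983 bases. The shorter genes compared are thus not alike in length. Those that did not fall in the WT tables were Phf11b (1184), Phf11a (1354), Ino80b (1503), Kat8 (1579) and Phf5a (1663). Across chromatin genes, Spearman's rho between transcript length and log2 change was -0.55 (30 genes, CD8a KO), -0.48 (47, CD8a WT), -0.72 (29, CD4 KO) and -0.44 (43, CD4 WT). These genes share the same mice and are not independent. The part of length in these falls was not tested.

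**Figure D4:**
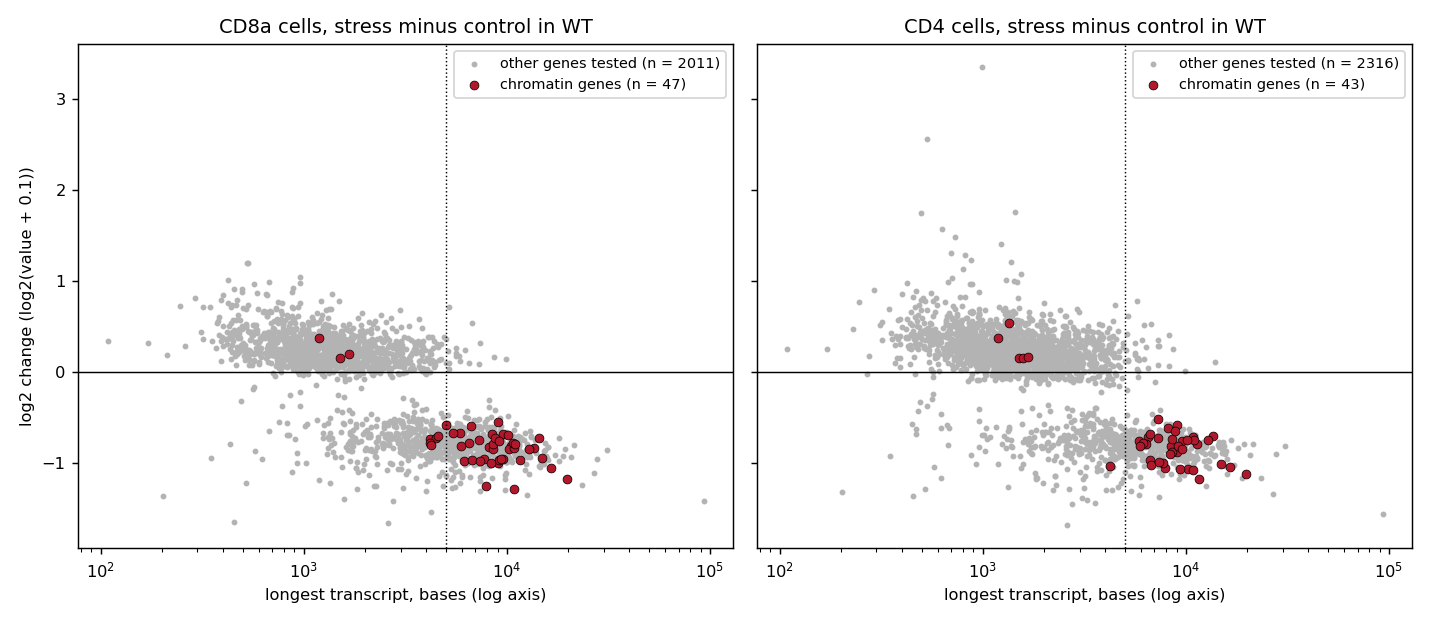
Change with stress in log2(value + 0.1) (y axis) against the length of the longest transcript (log x axis, bases) for chromatin genes (red) and other genes (grey) of the WT tables, in CD8a cells (left) and CD4 cells (right); the dotted line is at 5000 bases. Long chromatin genes lie among other long genes, with medians of -0.83 in CD8a and -0.81 in CD4 cells against -0.80 and -0.81 for the others, and those above 0 have 1663 bases or fewer.

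Few chromatin genes were in the authors' tables of KO against WT mice: Ncor1 of 303 genes in CD8a cells without stress, Kdm6b and Ncor1 of 496 in CD4 cells without stress, and 0 of 99 and 0 of 87 under stress. None was called by limma (0 of 1 in CD8a and 0 of 2 in CD4 cells, with 1 in each at an unadjusted p under 0.05), where 8.25% and 21.8% of genes were called in either direction. These shares over all genes rest on single mice. The CD4 calls were 1 lower and 1 higher without unstressed KO mouse 1 or 2 or unstressed WT mouse 2, 2 and 1 without WT mouse 3, 19 and 8 without WT mouse 1, and 48 and 204 without KO mouse 3, against 33 and 75 with all. The CD8a calls ran from 4 lower and 5 higher (without unstressed WT mouse 2) to 32 and 15 (without WT mouse 1), with 6 and 4 without KO mouse 2 and 8 and 6 without WT mouse 3, against 13 and 12. No member was called in any of these. Ncor1 averaged 4.45 ± 0.15 in CD8a cells of unstressed KO mice and 3.96 ± 0.162 in those of unstressed WT mice (SD, n = 3). The log2 difference was 0.17 ± 0.06 (SE, adjusted p = 0.07 by limma). Kdm6b averaged 0.591 ± 0.0194 in CD4 cells of unstressed KO mice and 0.782 ± 0.101 in those of unstressed WT mice (SD, n = 3). The log2 difference was -0.35 ± 0.14 (SE, adjusted p = 0.075 by limma), and every KO value was below every WT value.

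Whether stress changed chromatin genes differently in KO and WT mice was tested with an interaction term over all 12 mice. By limma 0 of 49 members in CD8a and 0 of 46 in CD4 cells were called, as were 0% of all 2851 and 2999 genes. At an unadjusted p under 0.05 there were 3 and 6 members, and 204 and 284 of all genes. In CD4 cells the fall of Kdm6b was nominally smaller in KO mice (difference 0.53, 0.20 to 0.85 as 95% interval, unadjusted p = 0.0032, adjusted p = 0.34). Intervals above 0 were also those of Setd7 (0.39, 0.10 to 0.69), Hdac7 (0.44, 0.05 to 0.83), Nsd3 (0.22, 0.03 to 0.41) and Arid4b (0.26, 0.02 to 0.51). That of Phf11a was below 0 (-0.52, -0.90 to -0.15, adjusted p = 0.39). In CD8a cells the 3 were Brd3 (0.37, 0.05 to 0.69), Kat6a (0.31, 0.03 to 0.60) and Ezh1 (0.32, 0.00 to 0.65). The median interaction was 0.09 over members and 0.01 over all genes in CD8a cells, and 0.10 and -0.05 in CD4 cells. The medians of members ran from 0.03 (without stressed WT mouse 1) to 0.15 (without stressed WT mouse 3) in CD8a and from 0.05 (without stressed WT mouse 1) to 0.13 in CD4 cells when 1 mouse was left out. Of these members 19 in CD8a and 17 in CD4 cells were not in the authors' table of stress in KO mice, against 2 and 3 not in that of WT mice, so the medians rest on a selection that differs between the genotypes. Of the genes named above, Nsd3 alone was in both tables. The others were in that of WT mice only, a selection on these same mice that favours a larger change in WT mice. Kdm6b was also listed for KO against WT mice without stress, a difference that is part of its interaction.

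CD8a and CD4 cells of the same unstressed WT mice were compared in the 37 chromatin genes listed in both. Hdac7 was called higher in CD8a cells and 0 genes lower by limma, where 2.31% of 2166 genes were called higher and 2.31% lower, and 8 of the 37 had an unadjusted p under 0.05. Over all genes, 50 higher and 50 lower calls became 0 and 0 without unstressed WT mouse 2, 31 and 3 without mouse 1, and 176 and 210 at a pseudocount of 1. Hdac7 averaged 1.61 ± 0.0378 in CD8a and 1.16 ± 0.101 in CD4 cells (SD, n = 3). The within-mouse log2 difference was 0.45 ± 0.07 (SE, adjusted p = 0.037 by limma), and the call was lost without unstressed WT mouse 1 (0.48, adjusted p = 0.099) or mouse 2 (0.39, adjusted p = 0.21). Ash1l (-0.35 ± 0.07), Baz2a (-0.35 ± 0.07) and Phf20l1 (-0.27 ± 0.06) did not pass, and were called lower in CD8a cells with the lowest 25% of genes left out (adjusted p 0.033 to 0.04 by limma). The stress change differed between CD8a and CD4 cells in 0 of 37 genes in each genotype by limma (0% of 2166 genes). One gene in each had an unadjusted p under 0.05, Hdac7 in KO mice (-0.30, -0.51 to -0.09 as 95% interval) and Arid1a in WT mice (-0.21, -0.41 to -0.01). Which genes are listed for a single cell type, 12 for CD8a (Tet1, Tet2 and Ezh1 among them) and 9 for CD4 (Kdm6b, Chd3 and Setd1b among them), follows the authors' selection.

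Chromatin proteins outside the name rule were followed with a list of 114 partners, such as complex subunits. In CD8a KO cells 8 of the 19 in the table fell (median log2 change -0.06, where 22.1% of all genes were called lower). In CD8a WT cells 20 of 27 fell (median -0.80, 41.5% of all genes), in CD4 KO cells 12 of 22 (median -0.59, 20%) and in CD4 WT cells 17 of 25 (median -0.74, 28.9%). None rose in the first 3 comparisons and 2 rose in CD4 WT cells. The 11 that did not pass in CD8a KO cells include Ruvbl1 and Ruvbl2, ATPases shared by INO80 and TIP60 (0.04 ± 0.14 and 0.04 ± 0.12), and Trim28, a corepressor (-0.02 ± 0.11). Atrx, a remodeller of repetitive DNA, changed by -0.95 ± 0.07 in CD8a KO, -0.93 ± 0.08 in CD8a WT, -0.84 ± 0.08 in CD4 KO and -0.87 ± 0.07 in CD4 WT cells. Bptf, the largest subunit of the NURF remodeller, changed by -0.76 ± 0.08, -0.91 ± 0.08, -0.75 ± 0.08 and -0.88 ± 0.08 in the same order. Pbrm1, which defines the PBAF form of SWI/SNF, changed by -0.59 ± 0.09, -0.73 ± 0.09, -0.65 ± 0.10 and -0.75 ± 0.08. The genes that rose in CD4 WT cells were Bcl7c, a small BAF subunit (0.44 ± 0.13, adjusted p = 0.011 by limma), and Sap18, of the Sin3 complex (0.42 ± 0.12, adjusted p = 0.0077).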

How the data were processed

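Spleen cells of 12 mice were sequenced with the 10x Genomics 3' v2 kit, per the labels' protocols. The submitters' processing notes name Cell Ranger 2.1.1 and the build mm10. The sources used here do not give cell filters, doublet treatment, cell typing, strand use, annotation or how genes were selected. The deposited signal is the average expression of a gene in the CD4 or CD8a cells of a mouse, per the file headers, and is linear on a scale of 10000. It is no count, so depth is unknown and no counting interval is given. The authors deposited 4 tables per cell type, each with all 12 mice. Values of 0 genes differed between tables, and 0 columns were unused.

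Groups came from the labels. Values were tested on log2(value + 0.1), which understates changes of low genes, by limma 3.58.1 (R 4.3.3; trended empirical Bayes, two-sided, Benjamini-Hochberg over all genes of the fit). Stress and genotype fits used the genes of the comparison's table, interactions all genes of the cell type, and CD8a against CD4 the difference within each mouse. The fits were also run on simulated data with normal noise drawn separately for each gene. The rates of recovery and of false calls are not given here. Members and lists were chosen with earlier results of these data known. Genes named by rule were the largest changes among called members at or above the table's median level, the smallest p of each role, the highest levels, and calls between genotypes or cell types; others were chosen after their values were seen. A planned permutation test of the summed level was not run, as members were chosen with results known.

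Gene models came from GENCODE M21, which has the assembly of mm10. Of the 58 members 33 overlap a gene on the other strand (Kdm6b and Kdm6bos, Hdac7 and Slc48a1) and 21 one on the same strand, whose reads may not be told apart. Transcripts were aligned with Biopython 1.88. Alternatives were pseudocounts of 0.01 and 1, leaving out the lowest 25% of genes, centring, rescaling without ribosomal and mitochondrial genes, all genes of the cell type, 4 groups in 1 fit, the mouse number as a block, and leaving out each mouse.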

Additional observations from a re-analysis of the deposited data

How the results depend on the processing

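All 130 calls of a lower chromatin gene held in the alternative settings (1817 results, 1 per call and setting, on the same mice). The median log2 change in CD8a KO, CD8a WT, CD4 KO and CD4 WT cells was -0.45, -0.44, -0.45 and -0.44 at a pseudocount of 1, and -0.90, -0.81 and -0.88 in the last 3 at 0.01. Centring gave -0.61 in CD8a WT and -0.72 in CD4 WT cells, rescaling -0.64, -0.67, -0.62 and -0.71 in the 4, and all genes of the cell type -0.69 in CD8a KO (44 lower) and -0.68 in CD4 KO cells (38 lower). The ratio of summed levels after rescaling was 0.667, 0.636, 0.683 and 0.629. Members called higher were 1 in CD8a KO after rescaling; 0 in CD8a WT at 0.01 or over all genes and 3 with centring or rescaling; 2 in CD4 KO with centring and 3 after rescaling; 1 in CD4 WT with low genes left out or 4 groups in 1 fit and 4 after rescaling. In unstressed CD4 cells 1 of 2 members was called lower in KO mice with centring or 4 groups in 1 fit. The CD4 interaction median was 0.05 at a pseudocount of 1 and 0.18 with centring. For CD8a against CD4 cells 4 members were lower at a pseudocount of 1, 3 with low genes left out, and 0 higher at 0.01.

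Leaving out each mouse gave medians of -0.79 to -0.71 (CD8a KO), -0.87 to -0.72 (CD8a WT), -0.77 to -0.72 (CD4 KO) and -0.81 to -0.76 (CD4 WT), 0 to 1 higher calls in the first 3 and for CD8a against CD4 cells, and an interaction median of 0.03 to 0.15 in CD8a and 0.05 to 0.13 in CD4 cells. Small changes in KO mice turned sign: Brd9 in CD8a (-0.02 to 0.11 without a mouse) and CD4 cells (0.10 after rescaling, -0.12 to 0.03 without a mouse), and Phf11b in CD8a (-0.01 to 0.29 without a mouse) and CD4 cells (-0.08 to 0.29). The cause was not tested. Mouse numbers are not known to pair mice. Deviations from group means correlated at -0.24 to 0.24 between mice of the same number, which cannot settle it with 3 mice per group. With mouse numbers as a replicate block, Phf5a was called higher in CD4 KO cells (0.29, adjusted p = 0.045 by limma), 1 higher call. With depth unknown, the error of low values such as those of Phf11a and Tet1 cannot be stated.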
